A study of Homo sapiens with 4 samples.

Results

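The EGFR (ERBB) family of receptors and their ligands was followed in 2 cell lines of atypical teratoid/rhabdoid tumor (AT/RT), BT-16 and CHLA-266, with and without prior chemotherapy. The members were taken from a list of 4 receptors (*EGFR*, *ERBB2*, *ERBB3*, *ERBB4*) and 6 ligands (*TGFA*, *HBEGF*, *AREG*, *EREG*, *BTC*, *NRG1*), and all 10 were found among the 18449 gene symbols of the count table. AT/RT is a malignant brain tumor of early childhood, and both established lines belong to its MYC subtype. Each line gave 1 untreated and 1 treated library, so n = 2 libraries per condition throughout, and the replicates of a condition are the different lines. Treated cells received 1 µM doxorubicin, then 5 µM etoposide, both poisons of topoisomerase II, and then 1 µM vincristine, which blocks microtubule assembly. They were harvested once surviving cells had grown out again. Untreated cells received none of these drugs. The culture medium of all cells held fetal bovine serum and insulin.

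ERBB receptors are tyrosine kinases of the cell surface that pair up when a ligand binds. EGFR binds TGFA and AREG, both EGFR and ERBB4 bind HBEGF, EREG, and BTC, and ERBB3 and ERBB4 bind the neuregulins such as NRG1. ERBB2 has no known ligand of its own and serves as the partner of the others, while the kinase of ERBB3 is nearly inactive and works through its partner. The ligands are made as membrane proteins and are released by proteases, and active receptors signal through the RAS-MAPK and PI3K-AKT pathways.

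The total count per library lay between 49849257 and 75087193, with the smaller total after treatment in each line. Of the counts from 1 to 20, only 20.5 to 34.2% were odd numbers, and whether both reads of a pair were counted is not given in the sources used here, so the intervals given for ratios within a line cover counting error only and may be too narrow. The lines were close to each other. Across 12620 genes, which are not independent replicates, the Pearson correlation of log2 expression was 0.980 between the untreated libraries and 0.974 between the treated libraries, but 0.890 to 0.901 between untreated and treated libraries. How independent the lines are as replicates was not tested. Olfactory receptor genes, which such cells are not known to use, were detected more often after treatment. Of 335 such genes, 121 and 90 had counts in untreated BT-16 and CHLA-266, and 293 and 209 in the treated libraries. Their 95th percentile in TPM (counts divided by the merged exon length, scaled to the same sum in each library) was 0.227 and 0.262 before and 2.15 and 1.81 after treatment, and levels of members are set beside these values. Among the markers of the cells, *MYC* was at 126.9 and 112.7 TPM in untreated BT-16 and CHLA-266, and at 76.71 and 94.25 TPM in the treated libraries. *MUC1* was at 52.0 and 19.0 TPM before and 132.3 and 47.8 TPM after treatment (edgeR adjusted *p* = 0.0899, without a term for the line). Within a line, it rose 2.39-fold in BT-16 (95% interval 2.28 to 2.52) and 2.32-fold in CHLA-266 (2.13 to 2.54). *SMARCB1*, whose loss defines most AT/RT, was at 3.84 to 4.75 TPM, low beside *SMARCA4* (130.1 to 213.5 TPM) but not at 0, and counts per gene do not show from which exons these reads came. Of the homeobox genes, *HOXC9* reached 6.12 to 12.3 TPM. *HOXC10* and *HOXC6* were under the olfactory 95th percentile in both treated libraries, but above it in untreated BT-16 (0.39 and 0.25 TPM).

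Treatment was tested with edgeR (quasi-likelihood, Benjamini-Hochberg adjustment) over all 18066 genes with counts, and changes are given on the log2 scale with ± standard error. At an adjusted *p* value under 0.05, 5 of the 10 members passed, with *TGFA*, *EGFR*, and *HBEGF* upregulated and *ERBB3* and *ERBB4* downregulated. The other members, *ERBB2*, *NRG1*, *AREG*, *EREG*, and *BTC*, did not pass. Over all genes, 35.2% passed, 16.1% upward and 19.1% downward, so with 10 genes a count of 5 is close to the background. The median change of the 10 members was 1.38, against 0.24 over all genes, and it rested on the ligands with few counts. Over the 7 members with at least 10 counts in each library it was -0.10 (all such genes 0.0052), over the 8 that passed edgeR's own filter 0.35, with limma 0.34, and without treated CHLA-266 0.92. In counts per library size after TMM scaling (CPM), both treated libraries lay above both untreated ones for 6 members and below them for 2, while this held for 40.2% and 32.3% of all genes. The 3 members with under 10 counts in some library were *AREG*, *EREG*, and *BTC*. Upper-quartile scaling moved the median of all genes from 0.24 to 0.59 and the upregulated share of the genes that passed from 45.7% to 69.7%. *TGFA* and *EGFR* passed in each of 14 alternatives of test, scaling, filter, and left-out library, and *HBEGF*, *ERBB3*, and *ERBB4* did not.

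**Figure D1:**
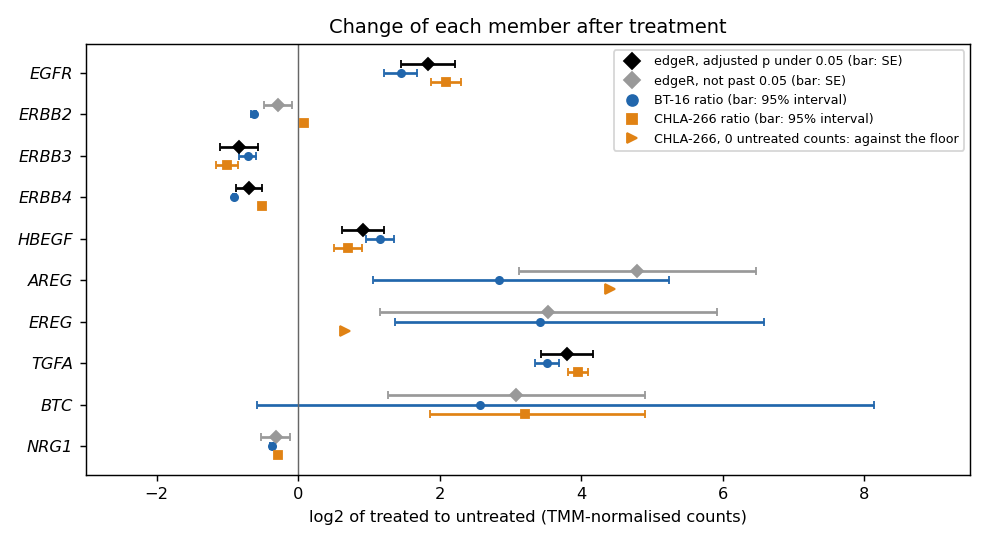
Change of each member after treatment on the log2 scale, with the edgeR estimate and its standard error as diamonds (black if the adjusted *p* value was under 0.05) and the ratio within BT-16 and CHLA-266 with its exact 95% interval as circles and squares. *TGFA* lies farthest right among the members that passed (3.80), *ERBB3* and *ERBB4* lie left of 0 in both lines, and *ERBB2* has one line on each side of 0. Triangles are ratios against a floor of 3 counts, used where the untreated library had 0 counts.

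The start regions of 4 of the 5 genes that passed are shown, as examples of 3 genes that rose and 1 that fell. Promoter windows from RefSeq (GRCh38.p14) were found for 8 of the 10 members, without *ERBB3* and *NRG1*. The 250 bases before the first listed start are given 5′ to 3′ in the direction of the gene, and capitals mark GC boxes (GGGCGG on either strand), the element bound by SP1.

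EGFR (chr7:55018767-55019016, plus strand): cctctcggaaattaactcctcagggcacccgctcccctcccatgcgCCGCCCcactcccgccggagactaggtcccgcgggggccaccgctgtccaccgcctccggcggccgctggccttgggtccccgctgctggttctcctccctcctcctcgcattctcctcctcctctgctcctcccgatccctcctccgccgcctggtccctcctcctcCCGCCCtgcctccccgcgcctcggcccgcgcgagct

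TGFA (chr2:70553827-70554076, minus strand): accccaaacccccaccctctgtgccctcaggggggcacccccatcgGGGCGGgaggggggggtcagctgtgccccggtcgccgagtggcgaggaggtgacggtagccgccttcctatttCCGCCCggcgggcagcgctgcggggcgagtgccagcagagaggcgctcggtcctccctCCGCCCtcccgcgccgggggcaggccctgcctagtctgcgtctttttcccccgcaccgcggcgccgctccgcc

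HBEGF (chr5:140346604-140346853, minus strand): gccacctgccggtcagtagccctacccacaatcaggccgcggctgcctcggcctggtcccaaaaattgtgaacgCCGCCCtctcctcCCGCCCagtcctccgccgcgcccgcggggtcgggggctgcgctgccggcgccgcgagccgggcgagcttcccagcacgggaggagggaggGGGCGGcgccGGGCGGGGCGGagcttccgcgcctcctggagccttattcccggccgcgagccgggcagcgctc

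ERBB4 (chr2:212538803-212539052, minus strand): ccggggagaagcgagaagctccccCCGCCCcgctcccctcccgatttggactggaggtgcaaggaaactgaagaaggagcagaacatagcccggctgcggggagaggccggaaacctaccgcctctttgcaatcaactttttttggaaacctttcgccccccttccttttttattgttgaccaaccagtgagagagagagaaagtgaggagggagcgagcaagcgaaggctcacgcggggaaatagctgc

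The windows of *EGFR*, *TGFA*, and *HBEGF* held 2, 3, and 5 GC boxes, with 2 of those of *HBEGF* overlapping, and that of *ERBB4* held 1. GC boxes occurred in 42.6% of the 35116 promoter windows of this length. The GC content was 73.6% for *EGFR*, 75.6% for *TGFA*, and 76.4% for *HBEGF*, against 57.2% for *ERBB4* and a median of 58.0% over all windows. Of the members that did not pass, *AREG*, *EREG*, *BTC*, and *ERBB2* had 65.2%, 58.0%, 62.0%, and 65.6%, with 1, 0, 0, and 0 GC boxes. A relation of these features to the change was not tested. An AP-1 element (TGACTCA, in 4.2% of windows), an E-box (CACGTG, 6.34%), and a TATA box (TATAAA, 10.7%) were each searched on both strands. None was found in the 4 windows shown, while those of *AREG* and *EREG* each held 1 TATA box. *EGFR* has another listed start inside the gene, and the 250 bases before it (chr7:55109589-55109838) held 2 AP-1 elements and 2 TATA boxes at a GC content of 38.8%. *TGFA* also has another listed start, and the window before that one (chr2:70553447-70553696) held no GC box at a GC content of 64.0%. Counts per gene do not show which start was used.

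*EGFR* (ENSG00000146648, chromosome 7 of hg38, 55019017 to 55211628, plus strand), the receptor of EGF, TGFA, and AREG, was the least abundant of the 4 receptors before treatment and rose 3.57-fold. In BT-16 its count went from 217 to 497, and CHLA-266 went from 239 to 859. Both treated libraries were above both untreated ones, with the highest value in treated CHLA-266. The change was 1.84 ± 0.38 (edgeR adjusted *p* = 0.00753). The ratio was 2.73-fold in BT-16 (95% Clopper-Pearson interval 2.33 to 3.22) and 4.26-fold in CHLA-266 (3.69 to 4.93). When 1 library was left out, the change lay between 1.30 (without treated CHLA-266) and 2.23 (without treated BT-16). Per exon length, *EGFR* stood at 0.739 and 0.896 TPM before and at 2.15 and 4.13 TPM after treatment. In treated BT-16 this is at the olfactory 95th percentile (2.15 TPM), while with the length of the longest transcript it was 2.68 TPM beside 1.67 TPM. The part of such low-level reads in the rise of *EGFR* was not tested.

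*ERBB4* (ENSG00000178568, chromosome 2, 211375717 to 212538841, minus strand), a neuregulin receptor of neural and heart tissue, was the most abundant receptor in all 4 libraries and fell. BT-16 dropped from 48592 to 21811 counts, and CHLA-266 from 42922 to 25480. The normalized ratio was 0.536 in BT-16 (95% interval 0.527 to 0.544) and 0.703 in CHLA-266 (0.692 to 0.714), and the difference between the lines could not be tested with 1 library each. Over both lines the change was -0.69 ± 0.18 (edgeR adjusted *p* = 0.0198). It lost its call without treated BT-16 (edgeR adjusted *p* = 0.0622), without untreated BT-16 (0.0704), without untreated CHLA-266 (0.0655), and with upper-quartile scaling (-0.35, edgeR adjusted *p* = 0.135). At 115.5 and 150.2 TPM, *ERBB4* was still the highest of the receptors after treatment.

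*ERBB3* (ENSG00000065361, chromosome 12, 56076799 to 56103505, plus strand), the neuregulin receptor with the weak kinase, fell as well. The count went from 1636 to 836 in BT-16 and from 1169 to 492 in CHLA-266, without overlap between conditions. The change was -0.84 ± 0.27 (edgeR adjusted *p* = 0.0420), with -0.71 in BT-16 (95% interval -0.84 to -0.59) and -1.004 in CHLA-266 (-1.16 to -0.85). This call was near the threshold and held in 5 of 14 alternatives, whose values lay between -1.17 and -0.48. It was lost without untreated BT-16 (edgeR adjusted *p* = 0.180), without untreated CHLA-266 (0.0588), and without treated CHLA-266 (0.134).

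*ERBB2* (ENSG00000141736, chromosome 17, 39687914 to 39730426, plus strand), the partner without a ligand, was the second most abundant receptor and did not pass. BT-16 held 14978 counts untreated and 8118 treated, CHLA-266 9720 and 8735. After scaling, these were 217.1 and 140.4 CPM for BT-16 beside 157.9 and 168.1 CPM for CHLA-266, so the conditions overlapped. The log2 ratio was -0.63 in BT-16 (95% interval -0.67 to -0.59) but 0.09 in CHLA-266 (0.05 to 0.13). The change over both lines was -0.28 ± 0.20 (edgeR adjusted *p* = 0.285) and turned to 0.07 with upper-quartile scaling.

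*TGFA* (ENSG00000163235, chromosome 2, 70447284 to 70554193, minus strand), a ligand of EGFR known from epithelia and many carcinomas, rose 13.9-fold, the largest change of the members that passed. In BT-16 the count climbed from 320 to 3065, while CHLA-266 climbed from 434 to 5698. Even the lower treated library held 53.0 CPM, against 4.64 and 7.05 CPM in the untreated libraries. The change was 3.80 ± 0.37 (edgeR adjusted *p* = 0.000177), with a ratio of 11.4-fold in BT-16 (95% interval 10.2 to 12.9) and 15.6-fold in CHLA-266 (14.1 to 17.2). It stayed between 3.19 and 4.23 with 1 library left out. Per exon length, *TGFA* went from 3.54 and 5.28 TPM to 42.9 and 88.9 TPM, above the olfactory 95th percentile in all 4 libraries.

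*HBEGF* (ENSG00000113070, chromosome 5, 140332843 to 140346603, minus strand), a heparin-binding ligand of EGFR and ERBB4, rose 1.89-fold. Its counts were 346 and 646 for BT-16, untreated and treated, beside 391 and 538 for CHLA-266. In CPM this was 5.02 and 11.2 for BT-16 and 6.35 and 10.4 for CHLA-266, so both treated libraries lay above both untreated ones. The change was 0.92 ± 0.30 (edgeR adjusted *p* = 0.0407). The call held in all 10 alternatives with all libraries, but in none of the 4 that left one out. There, the edgeR adjusted *p* was 0.158 without untreated and 0.103 without treated BT-16, and 0.0653 without untreated and 0.0646 without treated CHLA-266.

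*NRG1* (ENSG00000157168, chromosome 8, 31639222 to 32855666, plus strand), the neuregulin that binds ERBB3 and ERBB4, was the most abundant ligand in all 4 libraries and did not pass. BT-16 held 45430 counts untreated and 29476 treated, CHLA-266 50675 and 35307. The normalized ratio was below 1 in BT-16 (0.774, 95% interval 0.763 to 0.786) and in CHLA-266 (0.825, 0.814 to 0.837), yet treated CHLA-266 (679.4 CPM) stood above untreated BT-16 (658.6 CPM). The change was -0.32 ± 0.20 (edgeR adjusted *p* = 0.245), or 0.02 with upper-quartile scaling.

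*AREG*, *EREG*, and *BTC*, further ligands of EGFR, lie near each other on chromosome 4 (74445136 to 74455005, 74365145 to 74388749, and 74744759 to 74794523) and had few counts. *AREG* (ENSG00000109321) had 3 counts in BT-16 before and 18 after treatment, and none before but 54 after treatment in CHLA-266. The ratio was 7.16-fold in BT-16 (95% interval 2.09 to 37.9). In CHLA-266 it was 21.3-fold against a floor of 3 counts in the untreated library, and the lower end of the 95% interval was 16.75-fold. Its edgeR adjusted *p* of 0.0540 was just above the threshold, and it was under 0.05 in 8 of 13 alternatives. The edgeR adjusted *p* was 0.384 without treated CHLA-266, 0.0403 without untreated BT-16, and 0.0140 without treated BT-16, so single libraries decide whether *AREG* passes. In treated CHLA-266, *AREG* (2.52 TPM) was above the olfactory 95th percentile, and in the other libraries it was not. *EREG* (ENSG00000124882) had 2 and 18 counts in BT-16, then 0 and 4 in CHLA-266. *BTC* (ENSG00000174808) had 1 and 5 counts in BT-16, then 5 and 39 in CHLA-266. Neither passed (edgeR adjusted *p* = 0.267 and 0.209), and both stayed under the olfactory 95th percentile in every library.

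**Figure D2:**
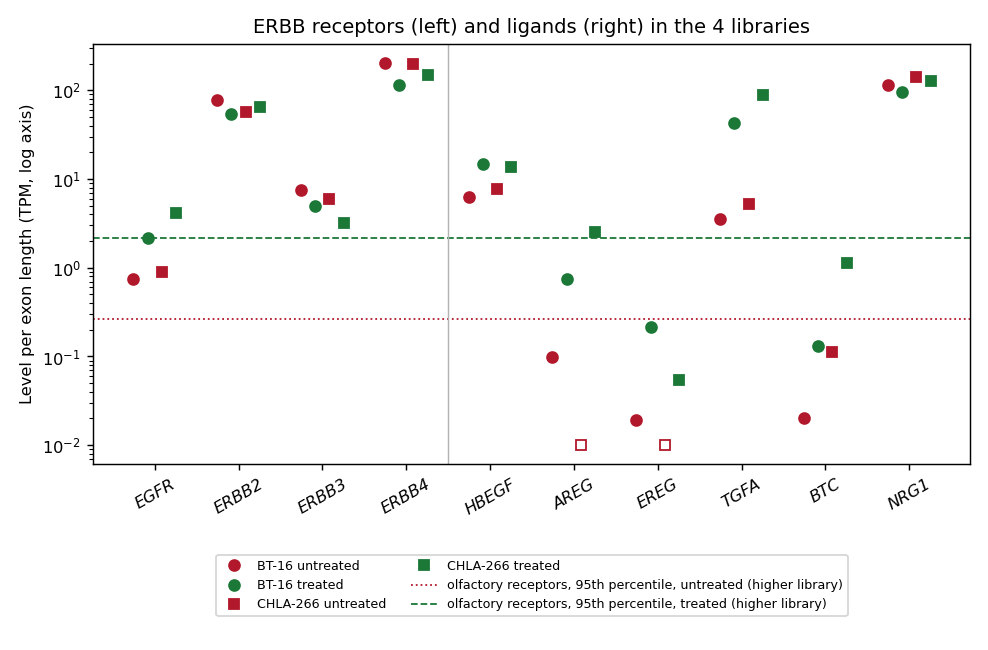
Level per exon length (TPM, log axis) of the 10 members in the 4 libraries, red for untreated and green for treated cells, circles for BT-16 and squares for CHLA-266, with open symbols at the bottom for 0 counts. *ERBB4*, *NRG1*, and *ERBB2* stand highest in untreated cells, and *TGFA* climbs from 3.54 and 5.28 to 42.9 and 88.9 TPM. The dashed and dotted lines are the 95th percentile of olfactory receptors in treated and untreated cells, each from the library with the higher value.

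Ordered by level per exon length, the receptors kept the sequence *ERBB4*, *ERBB2*, *ERBB3*, *EGFR* in 3 libraries, and in treated CHLA-266 *EGFR* (4.13 TPM) stood above *ERBB3* (3.22 TPM). *ERBB4* made up 69.9% and 75.7% of the summed level of the 4 receptors in untreated BT-16 and CHLA-266, and 65.3% and 67.5% after treatment. The share of *EGFR* was 0.255% and 0.344% before and 1.22% and 1.86% after treatment, so it stayed small. The summed level of the receptors was 290.0 and 260.3 TPM before and 176.7 and 222.5 TPM after treatment. Among the 6 ligands, the make-up moved further. *NRG1* went from 92.1% and 91.5% of their summed level to 61.7% and 54.4%, while *TGFA* went from 2.82% and 3.40% to 27.9% and 38.1%. *TGFA* was the third ligand behind *NRG1* and *HBEGF* in both untreated libraries and the second in both treated ones. The shares depend on the length used. With the longest transcript, *ERBB4* and *ERBB2* stood at 96.25 and 87.91 TPM in treated BT-16, and at 123.8 and 104.2 TPM in treated CHLA-266. *NRG1* and *TGFA* then stood at 125.7 and 39.74 TPM in treated BT-16, and at 165.8 and 81.37 TPM in treated CHLA-266. All these shares describe RNA levels with no test. In bulk libraries, fewer cells with a transcript and less of it per cell cannot be told apart.

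**Figure D3:**
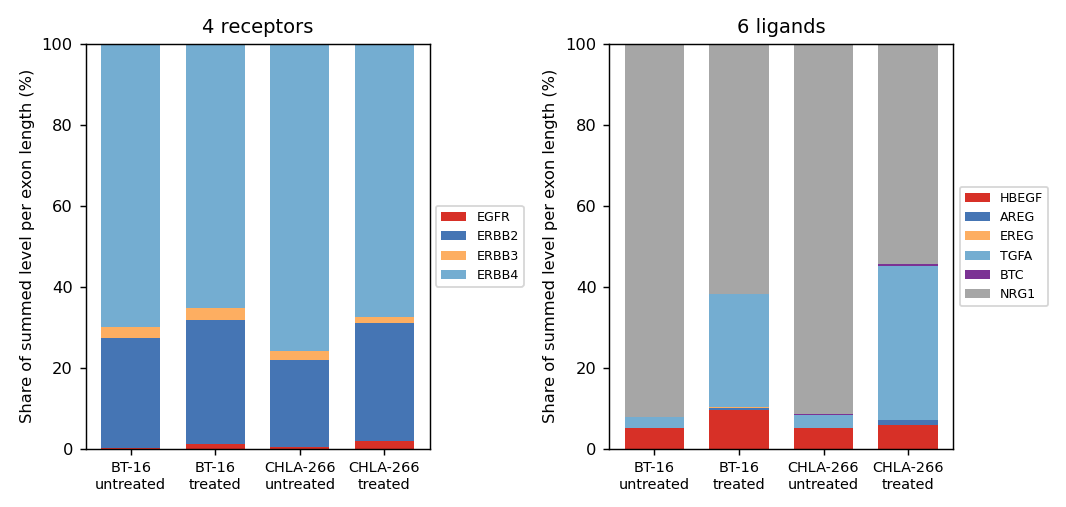
Share of each receptor (left) and each ligand (right) in the summed level per exon length of its group, in percent, for the 4 libraries. The receptor bars are led by *ERBB4* throughout, and in the ligand bars *TGFA* grows from 2.82% and 3.40% to 27.9% and 38.1% after treatment. The shares use the merged exon length and depend on that choice.

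Between the lines, compared in edgeR with a treatment term, 1 of the 10 members passed, beside 2.3% of all genes. *TGFA* was 1.79-fold higher in CHLA-266 (BT-16 minus CHLA-266 -0.84 ± 0.17, edgeR adjusted *p* = 0.00428). It was the higher one in untreated cells (7.05 against 4.64 CPM) and in treated cells (109.6 against 53.0 CPM). Among the 7 members that reached 10 counts in all 4 libraries, the next largest difference was that of *EGFR*, at 1.55-fold the BT-16 level in CHLA-266 without passing (edgeR adjusted *p* = 0.464). Without the treatment term no gene passed in edgeR, *TGFA* included. In that fit, 92 genes had an unadjusted *p* under 0.05, and DESeq2 with the term called 271 genes.

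None of the 5 other ligands of the family passed in the edgeR fit over all genes with counts, and 1 had an unadjusted *p* under 0.05. This was *NRG3*, which went from 4 to 33 counts in BT-16 and 6 to 43 in CHLA-266 (edgeR adjusted *p* = 0.0716). *NRG3* passed in 3 of 13 alternatives. These were DESeq2 (adjusted *p* = 0.0309), limma (0.0413), and edgeR with its own filter (0.0406). *NRG2* was the most abundant, with 588 and 554 counts in BT-16 beside 382 and 591 in CHLA-266 (0.51 ± 0.30, edgeR adjusted *p* = 0.211). *NRG4* had 75 and 48 counts in BT-16 beside 87 and 50 in CHLA-266. *EGF*, the founding ligand, had 6 and 32 beside 24 and 60 counts, and *EPGN* had 10 and 12 beside 8 and 0. Apart from *NRG2*, none of these ligands was above the olfactory 95th percentile in a treated library.

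Of 10 genes that act in the release of the ligands, 3 were upregulated and 7 did not pass, or 3 of 10 against 35.2% of all genes, with a median change of 0.09. *FRMD8*, which stabilizes the sheddase complex of iRhom and ADAM17, rose from 2254 to 4823 counts (BT-16) and 1619 to 3753 (CHLA-266), a change of 1.40 ± 0.18, edgeR adjusted *p* = 0.000813. *RHBDL2*, a rhomboid protease, rose from 162 to 383 in BT-16 and 203 to 417 in CHLA-266 (1.38 ± 0.37, edgeR adjusted *p* = 0.0213). *ADAM12* rose from 11 to 97 and 8 to 40 counts but stayed under the olfactory 95th percentile. The sheddases *ADAM17* (0.11 ± 0.17, edgeR adjusted *p* = 0.634) and *ADAM10* (0.08 ± 0.20, 0.780), named here after their values were seen, did not pass. *ADAM9*, which had the highest mean CPM of this list although *NRDC* was higher per exon length on average, did not pass either (-0.24 ± 0.27, edgeR adjusted *p* = 0.503). Without untreated BT-16, 1 of the 10 genes passed.

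Of 19 genes that act in the restraint or turnover of ERBB receptors, some of them protecting the receptors, 5 were upregulated, 1 was downregulated, and 13 did not pass. The share that passed was 31.6%, against 35.2% of all genes, and the median change was 0.13. *LRIG1*, a membrane protein that limits ERBB receptors, rose from 27 to 211 counts (BT-16) and 33 to 153 (CHLA-266), a change of 2.83 ± 0.57, edgeR adjusted *p* = 0.00643, with both treated libraries (2.06 and 1.67 TPM) under the olfactory 95th percentile. The phosphatase gene *PTPRJ*, the most abundant of this list, rose by 0.81 ± 0.18 (edgeR adjusted *p* = 0.00971), and *SOCS4* rose by 0.61 ± 0.16 (0.0205). *UBASH3B*, which protects receptors from CBL, fell from 2268 to 1266 and 2138 to 784 counts (-0.87 ± 0.23, edgeR adjusted *p* = 0.0184). With upper-quartile scaling 10 of the 19 genes passed, all upward, and without untreated CHLA-266 only 2 passed.

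Of 33 adaptor, RAS-MAPK, and PI3K-AKT genes, 6 were upregulated and 7 downregulated (39.4% passed against 35.2% of all genes, median change 0.03). *SHC2*, an adaptor of neural cells, rose from 462 to 1875 counts (BT-16) and 376 to 1613 (CHLA-266), a change of 2.31 ± 0.22, edgeR adjusted *p* = 0.000142. *STAT3* (1.33 ± 0.20) and the kinase gene *MAP2K2* (1.07 ± 0.18), the most abundant of the list, rose in both lines as well (edgeR adjusted *p* = 0.00164 and 0.00259). *AKT1* fell from 6993 to 2532 counts (BT-16) and 5467 to 1937 (CHLA-266), a change of -1.23 ± 0.17, edgeR adjusted *p* = 0.00107. *AKT2* (-0.75 ± 0.15) and *NRAS* (-0.67 ± 0.15) fell less (edgeR adjusted *p* = 0.00726 and 0.0102). Without untreated BT-16, and likewise without untreated CHLA-266, 8 of the 33 genes passed.

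Of 16 genes known to respond to ERK activity, 8 were upregulated, 3 were downregulated, and 5 did not pass (68.8% passed against 35.2% of all genes, median change 0.57 against 0.24). This list was chosen with earlier results of these data known, so its share only describes these genes. *EGR1*, an immediate early gene, fell from 11311 to 1022 counts (BT-16) and 4862 to 537 (CHLA-266), a change of -3.12 ± 0.37, edgeR adjusted *p* = 0.000552. *MYC* (-0.59 ± 0.17) and *SPRY2* (-0.51 ± 0.16), a feedback inhibitor of the pathway, fell less (edgeR adjusted *p* = 0.0289 and 0.0328). *DUSP4*, a phosphatase of MAP kinases, rose from 1309 to 4258 counts (BT-16) and 655 to 5222 (CHLA-266), a change of 2.55 ± 0.29, edgeR adjusted *p* = 0.000407. The feedback inhibitors *SPRY4* (1.18 ± 0.16), which had the highest mean CPM of the list although *SPRY2* was higher per exon length on average, and *SPRED2* (0.999 ± 0.16) rose too (edgeR adjusted *p* = 0.0011 and 0.00207). Feedback inhibitors thus stood on both sides. Without untreated BT-16, 7 of the 16 genes passed.

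**Figure D4:**
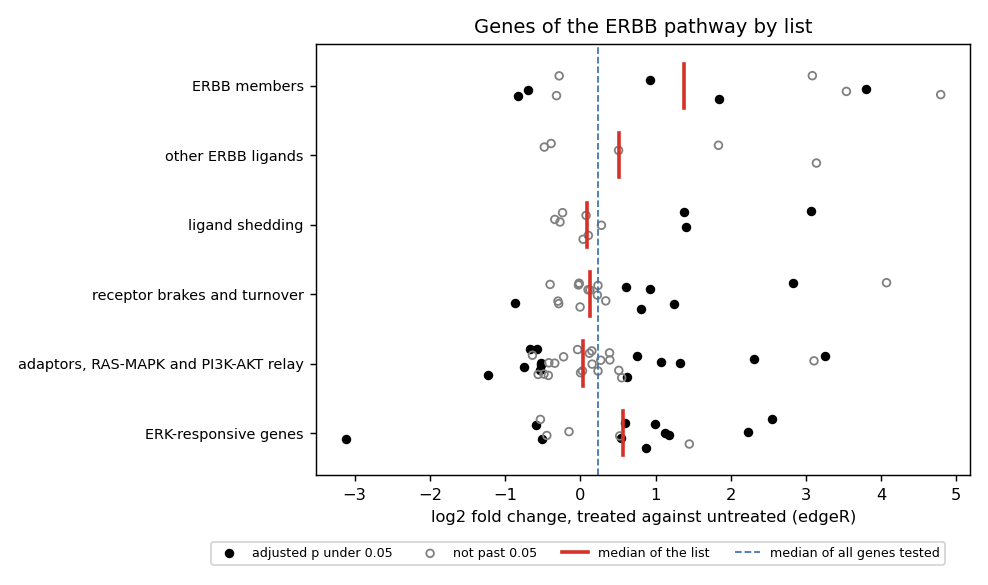
Change (log2 fold change of edgeR, treated against untreated) of each gene of the 6 lists of the ERBB pathway, filled if the adjusted *p* value was under 0.05, with the median of each list in red and that of all genes (0.24) as a dashed line. The medians of the relay, the brake and turnover genes, and the shedding genes lie between 0.03 and 0.13, near that of all genes, and *EGR1* lies farthest left (-3.12).

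Markers of other cell types were set beside these values. Of 7 macrophage markers, 3 were upregulated (*AIF1*, *CD163*, *LAPTM5*), or 42.9% against 35.2% of all genes. The summed level of the 7 macrophage markers was 1.90 and 2.62 TPM before and 9.12 and 10.5 TPM after treatment. *CD68* was at 0 counts in both treated libraries and *AIF1* at 0 in both untreated ones. None of the 7 was above the olfactory 95th percentile in both treated libraries, and *CD163* and *LAPTM5* were under it in both. None of 6 keratinocyte markers passed in edgeR, while 2 had an unadjusted *p* under 0.05, and 2 passed in edgeR with the line as a block, with halved counts, in DESeq2, and in limma. *KRT14* went from 0 to 122 counts (BT-16) and 16 to 35 (CHLA-266), with a fitted change of 3.42 ± 1.43 (edgeR adjusted *p* = 0.0920). *TP63* went from 13 to 104 and 0 to 49 counts, with a fitted change of 3.81 ± 1.35 (edgeR adjusted *p* = 0.0553). *SFN* carried nearly all of their summed level (705.8 to 1118 TPM of 706.4 to 1124 TPM), *IVL* was at 0 in both untreated libraries and in treated CHLA-266, and *KRT5* had at most 10 counts. Of 7 fibroblast markers, *PDGFRA* and *COL3A1* were upregulated and *COL1A2* was downregulated (42.9% passed against 35.2% of all genes). The summed level of the 7 fibroblast markers was 5.78 and 3.98 TPM before and 10.1 and 5.45 TPM after treatment. *PDGFRA* and *COL3A1* were under the olfactory 95th percentile in both treated libraries. The part of the cells behind all these markers in the changes of *TGFA*, *EGFR*, and *HBEGF* was not tested.

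Some genes had nearly the same pattern over the 4 libraries as the most abundant receptor and ligand. Among the 12620 genes that reached 10 counts in all 4 libraries, *BLTP3A*, *TXNRD2*, and *TTC28* were nearest to *ERBB4*, with a root mean square difference of centered log2 CPM of 0.00421, 0.0127, and 0.0176. *RAPGEF6*, *NIPA1*, and *MPHOSPH8* were nearest to *NRG1* (0.00175, 0.0108, and 0.0154). With 4 libraries, such closeness only describes these values.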

How the data were processed

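RNA of 4 libraries was sequenced with paired ends after amplification with a stranded kit for low input. Per the labels and the methods, the authors demultiplexed with bcl2fastq 2.20, trimmed adapters, aligned to hg38 with STAR, counted per gene, and removed repeated symbols and genes of the sex chromosomes. The deposited estimated counts are unnormalized, and 5 values that were not whole were rounded. The deposited log2 values come from the variance-stabilizing transformation of DESeq2 and served as an alternative with limma.

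Here, 18066 genes with counts were tested with edgeR 4.0.16 (TMM, quasi-likelihood test, Benjamini-Hochberg adjustment) in R 4.3.3, with treatment alone, and with treatment and cell line for the cell line comparison. DESeq2 1.42.0, limma 3.58.1, the cell line as a block, other scalings, filters, halved counts, and each library left out were alternatives. Same-line libraries are paired by the line, and their deviations from the condition means correlated at 0.257 across 12620 genes. Intervals are exact Clopper-Pearson intervals at 95%, and the floor is 3 counts. Exon lengths come from GENCODE on hg38 and promoter sequences from RefSeq. The tests were also run on simulated counts with less spread between libraries than these data have, so that run does not show how they perform here. Members and lists were chosen with earlier results of these data known. Named are all members, the 5 other ligands, and from each list the most abundant gene and up to 3 genes of smallest adjusted p per direction. Genes named outside this rule are *SMARCB1* and the other markers listed for cell types, *ADAM10*, *ADAM17*, and *NRDC*. The protein sequences of members were not used here.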

Additional observations from a re-analysis of the deposited data

Results flagged for a closer look

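After treatment, 6 named genes moved in opposite directions in BT-16 and CHLA-266 with TMM scaling. None of these differences was tested, since each line had 1 library per condition. For *ERBB2*, the log2 ratio was -0.63 in BT-16 but 0.0902 in CHLA-266, and both 95% intervals exclude 0. *EPGN* was higher in treated BT-16 (log2 ratio 0.52, interval -0.82 to 1.89) and had 0 counts in treated CHLA-266, with too few counts for a comparison. The macrophage marker *CSF1R* had log2 ratios of 1.04 and -0.52, and the mesenchymal marker *VIM* had -0.33 and 0.29. The sheddase gene *ADAM10* had -0.13 and 0.239, with both intervals away from 0. The homeobox gene *HOXC9* had 0.11 and -0.16, with 0 inside both. With library totals in place of TMM, *ADAM10* had 0.159 and 0.404, and *HOXC9* had 0.397 and 0.0049. The opposite direction of *ADAM10* and *HOXC9* thus depended on the scaling, while *ERBB2*, *CSF1R*, and *VIM* kept opposite signs. The intervals cover counting error only.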

How the results depend on the processing

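After treatment 5 members passed, and between 2 and 4 did with 1 library left out (3 without untreated BT-16 and 4 without treated BT-16, *AREG* among both, 2 without untreated CHLA-266, 3 without treated CHLA-266). Beside *TGFA* and *EGFR*, the first 5 kept *ERBB3* without treated BT-16 and *ERBB4* without treated CHLA-266. *TGFA* and *EGFR* passed in all 14 alternatives each. A block for the line, by which the libraries are paired, changed no call of a member in edgeR (5 passed), and raised the keratinocyte markers that passed from 0 to 2, with 7522 genes called in place of 6364. Upper-quartile scaling turned the sign of *ERBB2* (0.0665) and *NRG1* (0.0239). *EPGN* ranged from -6.09 to 0.599 with 1 library left out, with the sign turned without treated CHLA-266. The causes were not tested. Between the lines, 415 genes passed, but 271 in DESeq2, 680 with median-ratio size factors, 689 with library totals, 130 among genes that reached 10 counts in all 4 libraries (fewer genes tested), and 0 without the treatment term, where the members called went from 1 to 0. Leaving out a library was not run there, because with the treatment term no residual degrees of freedom would remain. Low counts limit *AREG*, *EREG*, *BTC*, *EGF*, *EPGN*, and *NRG3*.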
